A study of Mus musculus with 12 samples.

Results

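Transcripts were counted in G3-YSD 1 and HSV 1, set against G3-YSD 2 and HSV 2, which are 4 of the 12 libraries in a study of several stimulators of mouse fibroblasts. The members were taken by sample title, and the division into these pairs follows the closeness of the counts, so that each pair holds 1 library of each label. All 4 are labelled as L929, an established mouse fibroblast line, collected 6 hours after transfection with G3-YSD or with HSV, and no further genotype or agent is given for them. G3-YSD is known as a short Y-shaped DNA that activates the DNA sensor cGAS, and HSV is given as the labels write it. The other 8 libraries are 2 each of mock, HT-DNA, hpRNA and cGAMP, also at 6 hours, and mock, HT-DNA and hpRNA carry a source wording that does not name L929. The digit at the end of a title was taken for a replicate number, although in the HSV titles it might instead name a virus type, which the labels leave unsaid.

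DNA in the cytosol is bound by cGAS, which makes cGAMP, and cGAMP activates STING and the kinase TBK1, which in turn activate the transcription factor IRF3. IRF3, together with NF-kB, switches on the gene of interferon beta. Secreted interferon then acts through its receptor on genes whose promoters hold an interferon-stimulated response element, and fibroblasts respond to it strongly.

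Total counts were 17117212 for G3-YSD 1 and 16427960 for HSV 1, against 13737622 for G3-YSD 2 and 12650790 for HSV 2, and the 12 libraries together spanned 12650790 to 18912400. A noise ratio, the median squared difference between libraries over that of counting noise (1 means counting noise alone), was 2.03 between G3-YSD 1 and HSV 1 and 1.41 between G3-YSD 2 and HSV 2. It was 82.6 between the libraries labelled G3-YSD and 76.3 between those labelled HSV. These ratios chose the pairs and are given as a description. The counts thus group the libraries by number and not by label, which the labels do not account for. Whether labels or numbers were exchanged before deposit was not tested, and if they were, each difference within a label and the test of the labels would compare other groups than those named. The nearest of the other 8 libraries was cGAMP 2 for both libraries numbered 1, at ratios of 45.2 and 43.7, and hpRNA 1 for both numbered 2, at 63.8 and 61.2. Of 15 fibroblast markers, Lum, Dcn and Twist1 had 0 counts in all 4 libraries. Thy1 was near 0, with 5 and 6 counts in the pair numbered 1 and 2 in each library numbered 2. The other 11 passed the filter on low counts. They were led by Vim, with 32813 and 29719 counts in the pair numbered 1 and 35866 and 32645 in the pair numbered 2. Of 22 markers of other cell types, 13 passed the filter on low counts. These summed to 94.9 and 103 CPM in the pair numbered 1 and 119 and 118 CPM in the pair numbered 2, against 96.7 to 119 CPM in the other 8. Most of this was Cd68, at 57.5 and 65.4 CPM in the pair numbered 1 and 73.0 and 74.0 CPM in the pair numbered 2. Des followed, at 18.8 and 20.8 CPM against 29.9 and 26.8 CPM. Krt5 and Hbb-bs were at 0 in all 4. In bulk RNA, fewer cells of a type and less RNA per cell cannot be told apart.

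The pairs differed across a wide part of the genes tested. The interferon response led the genes higher in the pair numbered 1. Lower in that pair were Myc and many matrix and mitochondrial transcripts, although the genes furthest down belong to none of the gene lists below. Levels are given in CPM, the count of a gene over the total of its library after TMM scaling of the 12 libraries, and differences are log2 values of the library numbered 1 minus the library numbered 2 within a label. A gene was counted where it differed at least 2-fold in the same direction in both labels. Of 16840 genes tested, 3351 were higher in G3-YSD 1 and HSV 1 (19.9%) and 1490 were lower (8.85%), 4841 in all (28.7%), and 11 passed 2-fold in opposite directions. Since the counts chose the pairs, these shares describe the libraries and carry no test. The median difference of all genes was 0.06 in G3-YSD and 0.04 in HSV. At least 8-fold, 748 genes were higher and 153 lower, and at least 32-fold, 176 were higher and 7 lower. Among the 11247 genes with a mean of at least 5 CPM in the higher pair, 1963 were higher and 727 lower. Just inside the threshold lay Tmem33, with differences of 1.00 in G3-YSD and 1.10 in HSV, and just outside it Tmem192, with 1.17 and 1.00, the HSV value being 0.999 before rounding. Within the pairs the labels differed at least 2-fold in 334 genes between G3-YSD 1 and HSV 1 (1.98%) and in 730 between G3-YSD 2 and HSV 2 (4.33%), of which 20 and 79 had at least 5 CPM. Whether libraries of the same number came from separate cultures is not said in the labels, so the G3-YSD and HSV differences are not counted here as independent repeats.

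**Figure D1:**
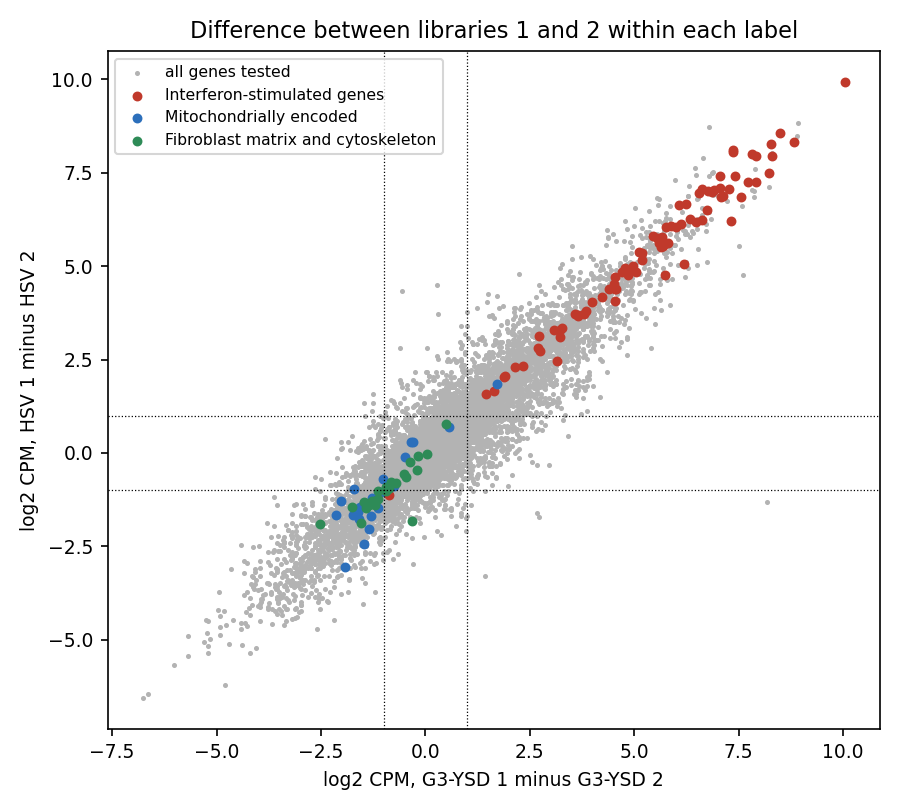
Difference in log2 CPM between the libraries numbered 1 and 2 under the G3-YSD label (horizontal axis) and under the HSV label (vertical axis), 1 point per gene, with 16840 genes in grey and 3 gene lists in colour. Dotted lines mark 2-fold, and 81 of 82 interferon-stimulated genes lie past it on the side of G3-YSD 1 and HSV 1.

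Type I interferon genes were higher in the pair numbered 1. Ifnb1, which encodes interferon beta (chromosome 4, 88522025 to 88522774, mm10), was at 26.6 CPM in G3-YSD 1 and at 23.9 CPM in HSV 1, against 4.31 CPM in G3-YSD 2 and 4.13 CPM in HSV 2, with 0 to 11.2 CPM in the other 8 libraries. Ifna4, an early interferon alpha gene, had 11.7 and 12.3 CPM in the pair numbered 1 and 2.15 and 2.06 CPM in the pair numbered 2. Both pairs thus carried interferon transcripts, and the pair numbered 2 lay inside the range of the other 8 for both genes. Of 18 type I interferon genes, 8 passed the filter on low counts. Of these 8, 6 were higher and 1 lower (75% and 12.5%, against 19.9% and 8.85% of all genes). The lower gene was Ifnab, at 1 and 0 counts in the pair numbered 1 against 19 and 15 in the pair numbered 2, a ratio of summed counts of 0.0222 with a 95% counting interval of 0.000547 to 0.132. Ifna16 had 18 and 14 counts in the pair numbered 1 and 0 in both libraries numbered 2, at least 8.06-fold higher, taking 3 counts over the pair as the limit of a count of 0. Interferon alpha genes are near-identical copies, and how reads were shared between them is uncertain.

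The interferon response had the widest median difference of the gene lists. Of 82 interferon-stimulated genes, 81 were higher and 0 lower in the pair numbered 1 (98.8% and 0%, against 19.9% and 8.85% of all genes). The median difference was 5.64 in G3-YSD and 5.59 in HSV. The remaining gene, Parp12, stood at 0.827 and 0.613 CPM in the pair numbered 1 and at 1.61 and 1.49 CPM in the pair numbered 2. Summed over the list, the level was 38981 CPM in G3-YSD 1 and 39012 CPM in HSV 1, against 1755 CPM in G3-YSD 2, 1718 CPM in HSV 2 and 1386 to 16789 CPM in the other 8. The list thus took 3.86% and 3.87% of all counts in the pair numbered 1 and 0.166% and 0.165% in the pair numbered 2. The promoters below are shown because the interferon-stimulated response element is the sequence through which these genes are known to be switched on. They come from RefSeq (GRCm38.p6) and are written 5′ to 3′ along the gene, and capitals mark GAAA and GAAA with any 2 bases between them, or the reverse complement.
Ifit1 (chr19:34640760-34640838, plus strand): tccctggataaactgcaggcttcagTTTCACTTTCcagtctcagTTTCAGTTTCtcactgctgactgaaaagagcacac
Isg15 (chr4:156200850-156200921, minus strand): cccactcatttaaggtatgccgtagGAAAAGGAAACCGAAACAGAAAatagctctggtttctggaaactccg
Rsad2 (chr12:26456538-26456597, minus strand): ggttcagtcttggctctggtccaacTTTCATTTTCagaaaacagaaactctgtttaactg
Cxcl10 (chr5:92349068-92349127, minus strand): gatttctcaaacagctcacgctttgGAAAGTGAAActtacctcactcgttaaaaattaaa
Igtp (chr11:58199497-58199555, plus strand): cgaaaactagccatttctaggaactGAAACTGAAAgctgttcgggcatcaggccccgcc

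The motif began 104 bases before the RefSeq start of Ifit1, 78 before that of Isg15, 120 before Rsad2, 213 before Cxcl10 and 34 before Igtp, and Isg15 held 3 overlapping copies. Searched on both strands of a window of 250 bases before to 50 after the start, without regard to overlap with other motifs, it occurred in 34 of 65 promoters of the list (52.3%). It occurred in 3.82% of the 11146 tested genes with a promoter sequence, in 6.83% of those higher in the pair numbered 1 and in 3.32% of those lower. Without the list, 5.35% of the higher genes held it. A match describes letters and is not evidence of binding.

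Named members ran from antiviral effectors to regulators. Ifit1, which binds viral RNA, was at 1805 CPM in G3-YSD 1 and at 1696 CPM in HSV 1 and, at the low end, 65.7 CPM in G3-YSD 2 and 54.9 CPM in HSV 2, differences of 4.78 and 4.95. Rsad2, which encodes the antiviral enzyme viperin, had 3456 and 3500 CPM in the pair numbered 1 against 74.0 and 64.2 CPM in the pair numbered 2. Isg15, a ubiquitin-like modifier, had 829 and 869 CPM against 7.07 and 6.69 CPM. For all 3 the pair numbered 2 lay within the range of the other 8 and the pair numbered 1 above it, the highest of the 8 being 672 CPM for Ifit1, 1197 CPM for Rsad2 and 285 CPM for Isg15. Irf7, the factor that amplifies interferon transcription, had 240 and 248 CPM in the pair numbered 1 against 3.08 and 2.31 CPM in the pair numbered 2, differences of 6.23 and 6.67. The immunity-related GTPases, which attack the vacuoles of intracellular parasites, were among the widest differences. Igtp had 530 and 522 CPM in the pair numbered 1 against 2.08 and 1.98 CPM in the pair numbered 2, and Iigp1 had 779 and 808 CPM against 3.31 and 3.06 CPM. Tgtp1 had 127 and 120 CPM in the pair numbered 1 and 0 counts in both libraries numbered 2, at least 1035-fold higher, while its close copy Tgtp2 had 61.7 and 63.4 CPM against 0.0769 and 0.0826 CPM, a ratio of 785 with a counting interval of 217 to 6489. Reads may be shared between such copies.

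**Figure D2:**
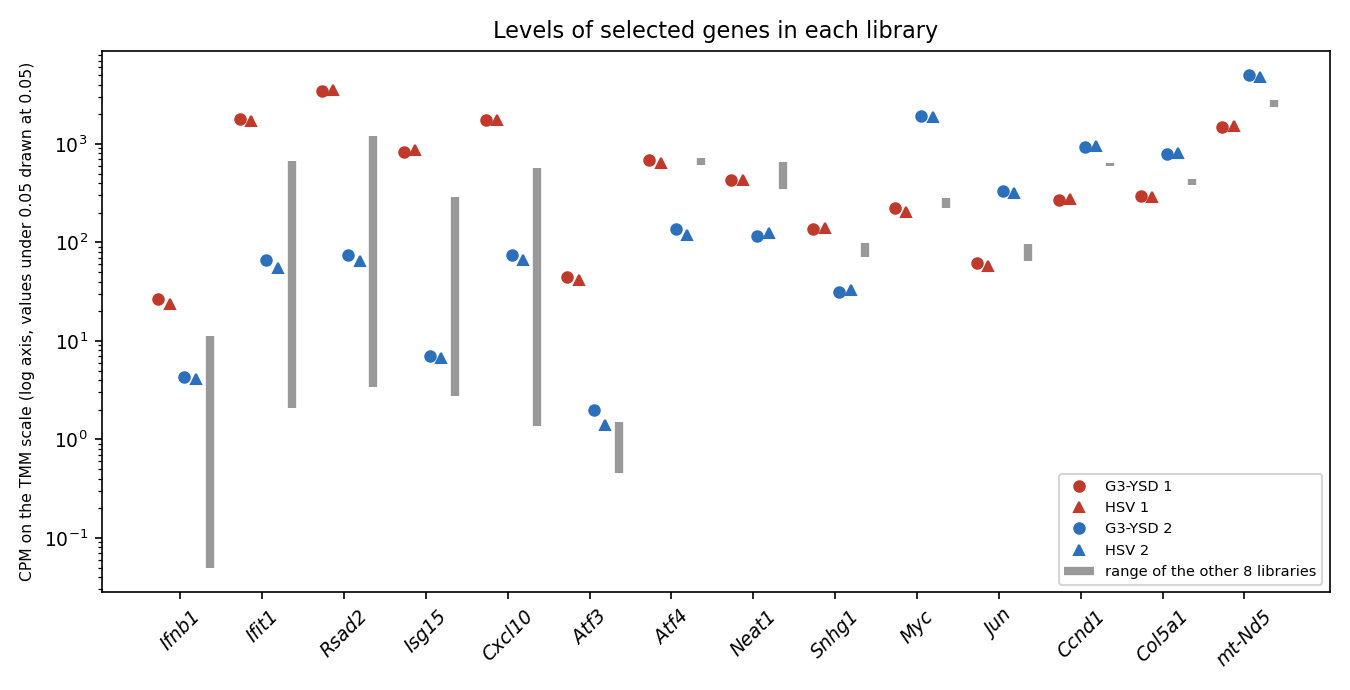
Levels of 14 genes in CPM (log axis) in G3-YSD 1 and HSV 1 (red), G3-YSD 2 and HSV 2 (blue) and over the range of the other 8 libraries (grey bars). Each gene's 2 libraries of the same number lie close together, with Rsad2 at 3456 and 3500 CPM against 74.0 and 64.2 CPM, and Myc at 221 and 204 CPM against 1914 and 1892 CPM.

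Among 26 genes of nucleic acid sensing tested, of 29 listed, 10 were higher and 0 lower (38.5% and 0%, against 19.9% and 8.85% of all genes). Median differences were 0.84 and 0.76. The list leaves out the RNA sensors Ifih1, Ddx58 and Dhx58 and the sensor Zbp1, which are counted with the interferon-stimulated genes. Ifih1, for example, had 416 and 401 CPM in the pair numbered 1 against 6.92 and 5.78 CPM in the pair numbered 2. Cgas, the cytosolic DNA sensor, was at 30.0 CPM in G3-YSD 1 and at 31.1 CPM in HSV 1, against 6.54 CPM in G3-YSD 2 and 5.28 CPM in HSV 2, and both libraries numbered 2 lay below the 7.36 to 20.5 CPM of the other 8. Tmem173, the older symbol of STING, had 16.5 and 15.6 CPM in the pair numbered 1 and 14.3 CPM in both libraries numbered 2, less than 2-fold apart. Irf3 had 48.6 and 42.2 CPM against 27.1 and 27.3 CPM. Tlr3, the endosomal receptor of double-stranded RNA, had 69.8 and 77.9 CPM in the pair numbered 1 against 0.538 and 1.16 CPM in the pair numbered 2, and Trim56, a ubiquitin ligase of the STING pathway, had 442 and 451 CPM against 25.1 and 27.9 CPM. Downstream of the receptor, 4 of 17 receptor and JAK-STAT genes were higher and 1 lower (23.5% and 5.88%, against 19.9% and 8.85% of all genes), and the list's median was -0.01 in G3-YSD and 0.05 in HSV. The higher ones were the feedback inhibitors Cish, Socs1 and Socs2 and the factor Stat3, with Socs1 at 36.3 and 33.5 CPM in the pair numbered 1 against 3.77 and 3.55 CPM in the pair numbered 2. The lower one was the phosphatase Ptpn6, at 2.07 and 2.02 CPM against 5.84 and 5.53 CPM.

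Of 23 antigen presentation genes tested, 15 were higher and 1 lower (65.2% and 4.35%, against 19.9% and 8.85% of all genes). The list's medians were 1.59 and 1.66. Tap1, which carries peptides into the endoplasmic reticulum, was at 658 CPM in G3-YSD 1 and at 649 CPM in HSV 1, against 35.2 CPM in G3-YSD 2 and 37.1 CPM in HSV 2. H2-T24, a non-classical class I gene, had 155 and 156 CPM in the pair numbered 1 against 2.77 and 1.98 CPM in the pair numbered 2. The lower member was Pdia3, a disulfide isomerase of the same loading complex, at 1511 and 1492 CPM against 3081 and 3058 CPM. Chemokines and cytokines followed, with 17 of 27 tested genes higher and 2 lower (63.0% and 7.41%) and medians of 1.68 and 1.81. Cxcl10, which attracts T cells and is counted with the interferon-stimulated genes, had 1748 and 1766 CPM in the pair numbered 1 against 75.3 and 66.7 CPM in the pair numbered 2. Ccl5 had 811 and 829 CPM against 39.4 and 32.2 CPM, and Il33, an alarm cytokine, had 106 and 102 CPM against 1.23 and 0.743 CPM. The pair numbered 1 lay above the other 8 for all 3 of these, whose highest values were 574 CPM for Cxcl10, 120 CPM for Ccl5 and 3.87 CPM for Il33. The 2 lower genes were Ccl20, at 3.66 and 3.86 CPM in the pair numbered 1 against 9.23 and 8.5 CPM in the pair numbered 2, and Csf2, a growth factor of myeloid cells. Csf2 had 0.0590 and 0 CPM in the pair numbered 1 against 1.61 and 1.82 CPM in the pair numbered 2, a ratio of 0.0176 with a counting interval of 0.000435 to 0.103.

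Genes of NF-kB and of cell death were higher or within 2-fold, and immediate-early genes divided. In the NF-kB list 13 of 25 tested genes were higher and 0 lower (52% and 0%, against 19.9% and 8.85% of all genes). Its medians were 1.05 and 1.07. Bcl3, a nuclear co-regulator of NF-kB, was at 14.3 CPM in G3-YSD 1 and at 13.2 CPM in HSV 1, against 0.538 CPM in G3-YSD 2 and 0.578 CPM in HSV 2. Nfkbia, the inhibitor that NF-kB induces at once, was nearly level, at 337 and 322 CPM in the pair numbered 1 and 298 and 286 CPM in the pair numbered 2, and all 4 libraries exceeded the 91.0 to 125 CPM of the other 8. Tnfaip3, another feedback inhibitor, had 164 and 142 CPM against 67.6 and 64.7 CPM, again with all 4 above the other 8, which reached 30.3 CPM. Of 24 cell death genes tested, 12 were higher and 0 lower (50% and 0%), with medians of 1.09 and 0.95. These included the inflammatory caspase gene Casp1, at 26.9 and 30.0 CPM in the pair numbered 1 against 3.54 and 3.80 CPM in the pair numbered 2, and the death receptor gene Fas, at 10.6 CPM in both libraries numbered 1 against 2.23 and 1.57 CPM. Among 23 targets of p53 tested, 7 were higher and 1 lower (30.4% and 4.35%), with medians of 0.10 and 0.16. The cycle inhibitor Cdkn1a had 199 and 194 CPM in the pair numbered 1 against 76.5 and 80.3 CPM in the pair numbered 2.

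Of 33 immediate-early genes tested, 10 were higher and 8 lower (30.3% and 24.2%, against 19.9% and 8.85% of all genes). Atf3, a stress-induced factor of the ATF family, was at 44.4 CPM in G3-YSD 1 and at 41.0 CPM in HSV 1, against 2.00 CPM in G3-YSD 2 and 1.40 CPM in HSV 2. Zfp36, which destabilises cytokine transcripts, had 72.2 and 59.9 CPM in the pair numbered 1 against 7.77 and 7.43 CPM in the pair numbered 2. In the opposite direction, Myc, a regulator of growth (chromosome 15, 61985391 to 61990374), had 221 and 204 CPM in the pair numbered 1 against 1914 and 1892 CPM in the pair numbered 2, differences of -3.11 and -3.21. The other 8 libraries held Myc between 224 and 283 CPM, just above the pair numbered 1 and far below the pair numbered 2. Jun, a subunit of AP-1, had 61.9 and 58.2 CPM in the pair numbered 1 against 334 and 319 CPM in the pair numbered 2, and Dusp1, a phosphatase that switches off MAP kinases, had 13.3 and 10.6 CPM against 107 and 98.7 CPM. Fos had 21 and 18.7 CPM against 9.07 and 8.67 CPM, and Egr1 296 and 246 CPM against 113 and 105 CPM, with all 4 libraries above the other 8 in both genes. The list's medians were 0.62 in G3-YSD and 0.29 in HSV. The AP-1 motif TGANTCA occurred in 8.57% of the promoters of higher genes, 8.0% of those of lower genes and 6.99% of all, and the kappa B motif (GGGA, any base, then TTTCC) in 0.775%, 0.312% and 0.529%, in the same windows on both strands.

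In the integrated stress response the transcript of its central factor differed, while the shares of the list past 2-fold were below those of all genes. Atf4 was at 684 CPM in G3-YSD 1 and at 637 CPM in HSV 1, against 135 CPM in G3-YSD 2 and 118 CPM in HSV 2, with 612 to 715 CPM in the other 8 libraries. The pair numbered 2 was thus the low one. ATF4 protein is known to be set largely by translation, which these counts do not measure. Of 39 genes of the list tested, 5 were higher and 3 lower (12.8% and 7.69%, against 19.9% and 8.85% of all genes). The medians were -0.29 and -0.26. Asns, which makes asparagine, had 300 and 297 CPM in the pair numbered 1 and 345 and 337 CPM in the pair numbered 2, and Ddit3, which encodes CHOP, had 188 and 183 CPM against 156 and 166 CPM. Chac1, which degrades glutathione, had 20.1 and 24.6 CPM in the pair numbered 1 against 7.0 and 8.67 CPM in the pair numbered 2, and all 4 lay below the 38.9 to 56.5 CPM of the other 8. The hormone gene Fgf21 had 0.472 and 0.368 CPM against 2.85 and 2.72 CPM, and Pck2, a mitochondrial enzyme of gluconeogenesis, had 80.9 and 75.4 CPM against 184 and 186 CPM. Promoters of these genes are shown since the same letters, TGATGNAA of the amino acid response element bound by ATF4 and its partners, lie near the start of members that were higher, lower and within 2-fold. In Asns the motif lies before the RefSeq start but inside the gene as GENCODE M21 bounds it, with its 5′ end at 7693254. Capitals mark the motif or its reverse complement.
Chac1 (chr2:119351024-119351081, plus strand): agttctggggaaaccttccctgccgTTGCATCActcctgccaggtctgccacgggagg
Asns (chr6:7693210-7693257, minus strand): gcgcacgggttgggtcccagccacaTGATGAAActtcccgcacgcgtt
Fgf21 (chr7:45615597-45615654, minus strand): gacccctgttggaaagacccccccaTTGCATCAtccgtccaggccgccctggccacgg
Pck2 (chr14:55540138-55540195, plus strand): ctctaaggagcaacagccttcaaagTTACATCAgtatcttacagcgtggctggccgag

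The motif occurred in 13 of 31 promoters of the list (41.9%), in 4.12% of those of higher genes, 4.47% of those of lower genes and 3.07% of all, counted on both strands as before. The unfolded protein response list was also divided. Its summed level was 13068 CPM in G3-YSD 1 and 12963 CPM in HSV 1, against 24433 CPM in G3-YSD 2, 24221 CPM in HSV 2 and 16204 to 17923 CPM in the other 8. In this sum the pairs lay on opposite sides of the other libraries, but most single genes did not. At a margin of 2-fold outside the range of the other 8, 20 of the 24 genes had both pairs within. The pair numbered 1 alone lay below in 2 genes, and the pair numbered 2 alone below in 2 and above in 0. Of 24 genes, 3 were higher and 4 lower (12.5% and 16.7%, against 19.9% and 8.85% of all genes). The medians were -0.66 and -0.72. The lower members included Hsp90b1, a chaperone of the endoplasmic reticulum, at 2135 and 2131 CPM in the pair numbered 1 against 4569 and 4507 CPM in the pair numbered 2, and the isomerase gene Pdia4, at 806 CPM in both against 2432 and 2409 CPM. The higher members included Dnajb9, a co-chaperone, at 61.8 and 60.5 CPM against 10.0 and 10.3 CPM, and Xbp1, the factor of the IRE1 branch, at 194 and 177 CPM against 90.7 and 88.2 CPM. Of 21 heat shock chaperones tested 2 were higher and 1 lower (9.52% and 4.76%), with medians of -0.05 and -0.01. Of 24 NRF2 targets 2 were higher and 3 lower (8.33% and 12.5%), with medians of -0.67 and -0.70. Hmox1, the heme-degrading target of NRF2, had 52.0 and 46.2 CPM in the pair numbered 1 against 10.5 and 10.2 CPM in the pair numbered 2, while Nqo1, a quinone reductase, had 7.38 and 6.38 CPM against 21.3 and 20.7 CPM.

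Lists of metabolic, growth and structural genes had smaller shares higher in the pair numbered 1 than the 19.9% of all genes. Their shares that were lower fell on both sides of the 8.85% of all genes. Of 31 genes of cholesterol and fatty acid synthesis tested, 0 were higher and 7 lower (0% and 22.6%), with medians of -0.53 and -0.43. Srebf1, a regulator of lipid synthesis, was at 90.2 CPM in G3-YSD 1 and at 87.7 CPM in HSV 1, against 320 CPM in G3-YSD 2 and 314 CPM in HSV 2, and Scd2, a fatty acid desaturase, had 167 and 162 CPM against 640 and 664 CPM. For Srebf1 the pair numbered 1 was the one outside the 267 to 324 CPM of the other 8, while for Scd2 all 4 libraries lay below their 928 to 1270 CPM. The list summed to 3115 CPM in G3-YSD 1, 3073 CPM in HSV 1, 5169 CPM in G3-YSD 2 and 5196 CPM in HSV 2. All 4 sums lay below the 5792 to 6618 CPM of the other 8. In the hypoxia and glycolysis list 2 of 33 tested genes were higher and 2 lower (6.06% each), with medians of -0.35 and -0.38. Hk2, a hexokinase, had 240 and 243 CPM in the pair numbered 1 against 42.0 and 42.1 CPM in the pair numbered 2. Of 45 cell cycle genes 2 were higher and 5 lower (4.44% and 11.1%), with medians of -0.28 and -0.29. Ccnd1, the cyclin of early G1, had 271 and 273 CPM in the pair numbered 1 against 933 and 944 CPM in the pair numbered 2, while Ccne2, an S-phase cyclin, had 34.2 and 40.0 CPM against 11.8 and 11.9 CPM. The other 8 libraries lay between the pairs for Ccnd1, at 592 to 632 CPM.

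Of 26 matrix and cytoskeleton genes tested, 0 were higher and 12 lower (0% and 46.2%), with medians of -0.94 and -1.02. These 26 summed to 6022 CPM in G3-YSD 1 and 5756 CPM in HSV 1. The sums were 10984 CPM in G3-YSD 2, 10826 CPM in HSV 2 and 7842 to 8322 CPM in the other 8. Col5a1, a fibrillar collagen gene, had 297 and 286 CPM in the pair numbered 1 against 795 and 798 CPM in the pair numbered 2, and Col1a1 had 168 and 147 CPM against 390 and 389 CPM. Of 11 fibroblast markers tested 5 were lower and 0 higher (45.5% and 0%, against 8.85% and 19.9% of all genes). The lower ones were Col1a1, Col3a1 and Col5a1, which the matrix list also holds, and the receptors Pdgfra and Pdgfrb. Their part in other lists was not tested. Among the 13 markers of other cell types that were tested, 2 were higher and 3 lower (15.4% and 23.1%). Kdr, a receptor of endothelial cells, had 178 and 133 counts in the pair numbered 1 and 1 count in each library numbered 2, and Pecam1, another endothelial gene, had 8 and 10 counts against 38 and 42. Of 83 cytosolic ribosomal protein genes 2 were higher and 0 lower (2.41% and 0%), with medians of -0.39 and -0.25. Those 2, Rps10 and Rpl36al, have near-identical copies that make their counts uncertain. None of 34 nuclear genes of the respiratory chain passed 2-fold, with medians of -0.57 and -0.46.

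Mitochondrially encoded transcripts were mostly lower in the pair numbered 1, with 1 ribosomal RNA higher. Of 25 tested, 17 were lower and 1 higher in the pair numbered 1 (68% and 4%, against 8.85% and 19.9% of all genes). Their medians were -1.36 and -1.33. The share of mitochondrial counts was 2.03% in G3-YSD 1 and 2.08% in HSV 1. It was 3.64% in G3-YSD 2, 3.53% in HSV 2 and 2.07% to 2.52% in the other 8. Protein-coding mitochondrial transcripts took 1.35% of the counts in both libraries numbered 1, against 3.36% and 3.26% in the pair numbered 2 and 1.87% to 2.32% in the other 8, so the pairs lay on opposite sides of the remaining libraries. The gene mt-Nd5, a subunit of complex I, had 1488 and 1508 CPM in the pair numbered 1 against 4959 and 4745 CPM in the pair numbered 2 and 2361 to 2789 CPM in the other 8. The single higher transcript was mt-Rnr1, the small mitochondrial ribosomal RNA, with 4903 and 5272 CPM in the pair numbered 1 against 1504 and 1467 CPM in the pair numbered 2. Mitochondrial ribosomal RNA, most of it mt-Rnr1 in these 4 libraries, took 0.665% and 0.710% of the counts in the pair numbered 1. It took 0.258% and 0.252% in the pair numbered 2 and 0.168% to 0.201% in the other 8. RNA was selected by polyA tail, so the amount of a transcript and the share of it that carries a tail cannot be told apart.

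**Figure D3:**
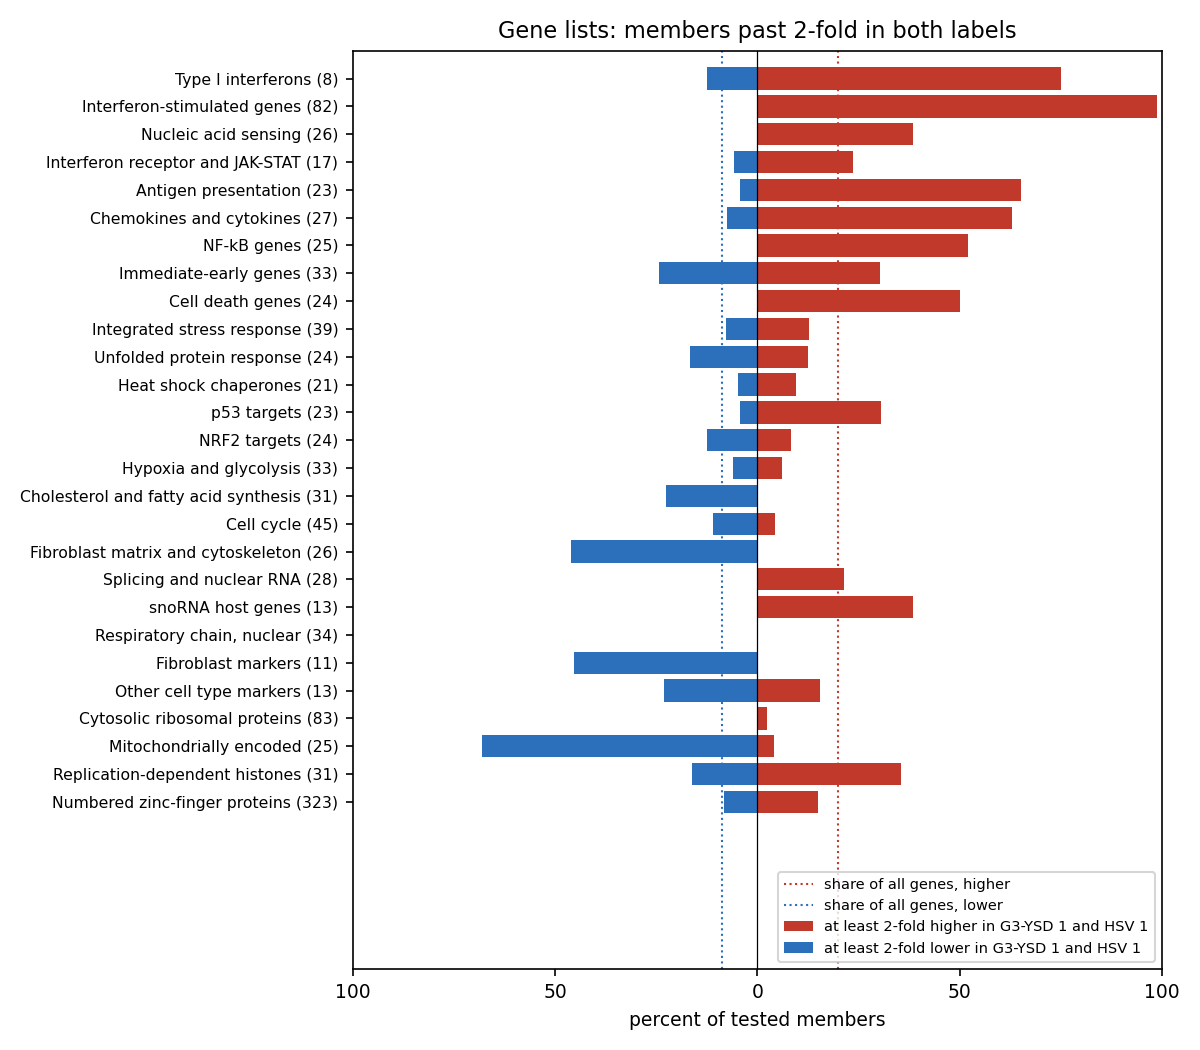
Percent of tested members of each gene list (number in brackets) that were at least 2-fold higher (red, right) or lower (blue, left) in G3-YSD 1 and HSV 1 in both labels. Dotted lines mark the shares of all genes, 19.9% higher and 8.85% lower, and the bars reach 98.8% higher for interferon-stimulated genes and 68.0% lower for mitochondrially encoded transcripts.

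The nuclear RNA Neat1 and 5 snoRNA host genes were higher in the pair numbered 1. Of 28 splicing and nuclear RNA genes 6 were higher (21.4%, against 19.9% of all genes) and 0 lower, with medians of 0.53 and 0.56. Neat1, the scaffold of paraspeckles, had 426 CPM in both G3-YSD 1 and HSV 1, against 115 CPM in G3-YSD 2 and 124 CPM in HSV 2, and 350 to 658 CPM in the other 8, so the pair numbered 2 was the low one. Malat1, the other abundant nuclear RNA, had 612 and 715 CPM against 805 and 823 CPM, less than 2-fold apart. Of 13 snoRNA host genes tested, 5 were higher and 0 lower (38.5% and 0%), with medians of 0.66 and 0.88. Snhg1 had 138 and 139 CPM in the pair numbered 1 against 31.5 and 33.1 CPM in the pair numbered 2. Replication-dependent histone transcripts, most of which end without a polyA tail, were higher for 11 and lower for 5 of 31 tested (35.5% and 16.1%). Their medians were 0.36 in G3-YSD and -0.05 in HSV. The linker histone gene Hist1h1c had 202 and 185 CPM in the pair numbered 1 against 26.1 and 26.2 CPM in the pair numbered 2. Of 323 numbered zinc-finger genes tested, 48 were higher and 27 lower (14.9% and 8.36%, against 19.9% and 8.85% of all genes), with medians of 0.27 and 0.23. Zfp945 had 213 and 204 CPM in the pair numbered 1 against 7.15 and 7.93 CPM in the pair numbered 2, and Zfp608 23.3 and 23.2 CPM against 274 and 276 CPM. Histone and zinc-finger genes have close copies, which makes single members uncertain.

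The genes with the widest difference in either direction were of unlike kinds. Among the 12 coding genes furthest up, most belong to the interferon response, including Trim30c, Ifi47, Ifit1bl1, Gbp7, Tnfsf10 and Ifi44l. Tmprss11d, a protease of airway epithelium, and Myo18b, a myosin of striated muscle, were the others. Tmprss11d had 38.2 and 32 CPM in the pair numbered 1 and 0 counts in the pair numbered 2, at least 294-fold higher, and at most 0.123 CPM in the other 8. The 12 furthest down were Cckar, Morc2b, Tmem132b, Map7, Ephx3, Tmem236, Chrm1, Evpl, Gjc1, Serpinc1, Ppfia4 and Tmeff2, which belong to none of the lists. Cckar, a receptor of the gut hormone cholecystokinin, had 0 counts in G3-YSD 1 and 1 in HSV 1, against 171 in G3-YSD 2 and 208 in HSV 2, and 0 in all of the other 8. Its ratio of summed counts was 0.00199, with a counting interval of 5.03e-05 to 0.0112. Tmem132b, a membrane protein gene, had 0.768 and 1.04 CPM in the pair numbered 1 against 57.8 and 59.7 CPM in the pair numbered 2, and at most 0.860 CPM in the other 8. Each pair thus carried coding transcripts, among these examples, that the remaining libraries hardly held.

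More genes were detected in all 4 libraries than in the other 8. With every library thinned to 12650790 counts, 17403 genes had at least 5 counts in G3-YSD 1 and 17485 in HSV 1, against 16355 in G3-YSD 2, 16461 in HSV 2 and 14871 to 15108 in the other 8. Of 30107 genes with at most 2 counts summed over those 8, 330 reached 5 counts in both libraries numbered 1 and in neither numbered 2, 166 did so in the pair numbered 2 alone, and 11 in all 4. Their place was taken from genes of the same strand with at least 5 CPM in the other 8. Of the 330, 1 began within 10 kb past the end of such a gene, and 283 had none that overlapped them or ended within 100 kb before them. Of the 166, 20 began within 10 kb past an end and 68 had none within 100 kb, while of all 30107 these numbers were 435 and 24604. Examples are Cpa6, a carboxypeptidase gene, with 154 and 145 counts in the pair numbered 1 against 1 in each library numbered 2, and Gjc1, a connexin gene, with 1 and 2 counts against 85 and 66.

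Gene classes differed as well. Long intergenic RNAs were higher in the pair numbered 1 for 37.9% of 705 genes and lower for 10.5%, and antisense genes for 37.0% and 5.80% of 586, against 17.6% and 9.02% of 13193 coding genes. Counts of antisense and overlapping genes are uncertain, since the strand setting is not given in the sources used here. Among coding genes with at least 5 CPM in the higher pair, the 138 with 1 exon were higher for 42.0% and lower for 11.6%, against 16.1% and 6.31% of 10236 with more exons. Level also moved with these shares, as 30.7% of genes under 1 CPM were higher and 17.9% lower, against 10.3% and 5.77% of those over 100 CPM, and its part in the class shares was not tested. The nuclear chromosomes had medians between -0.12 and 0.17, and the mitochondrial genome -1.50.

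**Figure D4:**
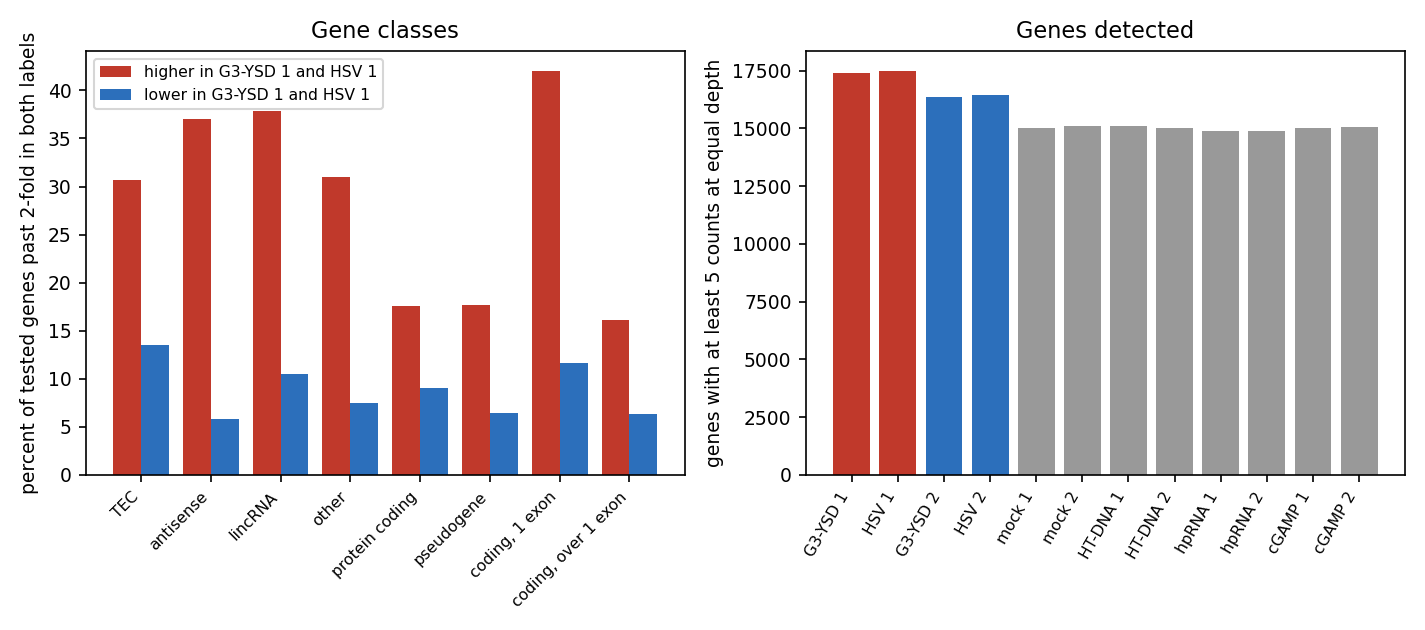
Left, percent of tested genes at least 2-fold higher (red) or lower (blue) in G3-YSD 1 and HSV 1 by gene type and, for coding genes of at least 5 CPM, by exon number (TEC marks loci that the annotation lists as still to be checked by experiment). Right, genes with at least 5 counts per library at equal depth, from 17485 in HSV 1 and 16461 in HSV 2 to 14871 to 15108 in the other 8 libraries (grey).

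The other 8 libraries showed which pair stood apart, taking a pair as above or below where its mean lay at least 2-fold outside their range. Of the 3351 genes higher in the pair numbered 1, 1559 had that pair above the range and the pair numbered 2 within it, 755 had the pair numbered 1 within and the pair numbered 2 below, and 935 had both within. In 59 genes both pairs were above and in 37 they lay on opposite sides. Of the 1490 genes lower in the pair numbered 1, 805 had that pair within the range and the pair numbered 2 above it, 115 had the pair numbered 1 below and the pair numbered 2 within, and 495 had both within. These counts are over genes chosen for a difference between the pairs. Over all 16840 genes tested, both pairs lay above the other 8 in 378 genes and both below in 135, the pair numbered 1 alone lay above in 1796 and below in 283, and the pair numbered 2 alone above in 1026 and below in 1165. The counts depend on the margin, and at 4-fold the 1559, 755 and 935 became 932, 158 and 2254. Among interferon-stimulated genes 46 had the pair numbered 1 above and the pair numbered 2 within, 33 had both within and 3 had the pair numbered 2 below. For the NF-kB list 10 of 25 were above only in the pair numbered 1 and 2 were above in both pairs, and for immediate-early genes 6 of 33 were above in the pair numbered 1, 6 in the pair numbered 2 and 5 in both. For snoRNA host genes 3 of 13 were below in the pair numbered 2 with the pair numbered 1 within.

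**Figure D5:**
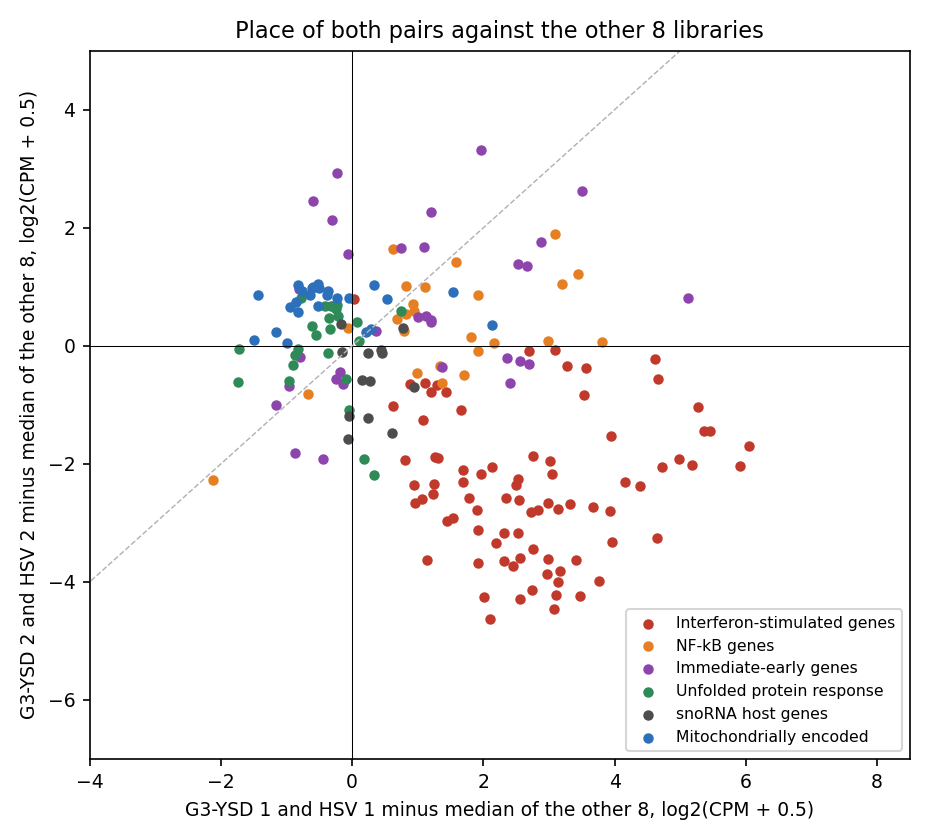
Mean of G3-YSD 1 and HSV 1 (horizontal axis) and of G3-YSD 2 and HSV 2 (vertical axis) minus the median of the other 8 libraries, in log2(CPM + 0.5), 1 point per gene of 6 lists, with the dashed line marking equal levels in both pairs. Nearly the whole interferon-stimulated list lies below that line, 46 of its 82 genes being above the range of the other 8 in the pair numbered 1 alone.

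The labels themselves were compared with edgeR's quasi-likelihood test over all 12 libraries, which asks what differs between G3-YSD and HSV and does not pair libraries by number. With Benjamini-Hochberg adjustment, 0 of 16840 genes passed an adjusted p of 0.05 (0%), 33 had an unadjusted p under 0.05, and DESeq2 called 1, Rps12-ps9. With the pairs this far apart the standard error was 2.53 on the log2 scale for Ifit1, whose G3-YSD over HSV difference was 0.10, and 0.80 for Atf4, whose difference was 0.12, so a lack of calls does not show that the labels act alike. Within the pairs the widest differences at 5 CPM or more were in Gm10095, with 146 CPM in G3-YSD 1 against 0.0613 CPM in HSV 1, and in Rps12-ps9, with 14.6 CPM in G3-YSD 1 against 1.66 CPM in HSV 1 and 46.5 CPM in G3-YSD 2 against 2.97 CPM in HSV 2. Rps12-ps9 is a processed copy of a ribosomal protein gene, and its reads may belong to other copies. F12, which encodes a clotting factor, had 6.07 CPM in G3-YSD 2 against 0.413 CPM in HSV 2.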

How the data were processed

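RNA of mouse fibroblasts was sequenced from polyA-selected libraries in pairs of 150 bases, per the labels' protocols, with 2 libraries under each of 6 labels. The authors deposited a file of raw counts by Ensembl gene identifier for each library, and the submitters' processing notes name HISAT2, HTSeq and mm10 without versions. No annotation release or strand setting is given in the sources used here. Of 54532 gene identifiers, 54495 matched GENCODE release M21, which gave symbols and positions.

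Counts were filtered with edgeR 4.0.16 in R 4.3.3 (default filter, 16840 genes) and scaled by TMM over all 12 libraries. Log2 CPM used a prior count of 2. G3-YSD 1 minus G3-YSD 2 and HSV 1 minus HSV 2 were computed, and a gene passed at 2-fold in both with the same sign, with no test, since the pairs were chosen by counts. The members and gene lists were chosen with earlier results of these data known. G3-YSD was tested against HSV in a fit with 6 residual degrees of freedom (biological coefficient of variation 0.397), and its p-values measure the spread between libraries of a label, which may be technical. Ratios of summed counts carry exact 95% intervals, and these and the limit of 3 counts for a count of 0 cover counting error only. Named genes are the 12 coding genes furthest in each direction with at least 5 CPM, up to 4 members of each list per direction, a fixed set, and the widest differences between the labels; Parp12 and the genes silent elsewhere were named after their values were seen. Calculations were tested on simulated data. Alternatives covered scaling (DESeq2 1.42.0 size factors, upper quartile, library totals), filters, prior counts of 0.5 and 8, thresholds, thinning and each library left out.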

Additional observations from a re-analysis of the deposited data

Results flagged for a closer look

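The direction between libraries numbered 1 and 2 was not the same under all labels. For 66 of the 82 interferon-stimulated genes, and 187 of 16840 genes tested, the library numbered 1 was at least 2-fold above the library numbered 2 in G3-YSD and in HSV and at least 2-fold below it in mock, HT-DNA, hpRNA and cGAMP. Isg15, for example, had 829 CPM in G3-YSD 1 against 7.07 CPM in G3-YSD 2, and 3.13 CPM in mock 1 against 216 CPM in mock 2. For 0 genes was the direction the other way round under the same labels. The difference between the labels was not tested.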

How the results depend on the processing

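The counts of 3351 higher and 1490 lower genes ranged from 3060 to 3517 higher and 1377 to 1763 lower under 4 other scalings, from 2923 to 3472 and 1256 to 1549 with other prior counts, and were 3292 and 1462 at equal depth and 4198 and 2149 with no filter on low counts. At 1.5-fold 4833 were higher and 3142 lower, at 4-fold 1470 and 472, and among genes with at least 5 CPM 1963 and 727, by construction of the threshold. With 1 library left out, the label that keeps both libraries decided alone, and the counts were 3858 to 3937 higher and 1861 to 1943 lower. Upper quartile scaling moved the median difference of all genes to -0.06, against 0.04 in the main scaling. Of 159 named genes past 2-fold, at most 4 were under it in any 1 other setting of scaling, filter, prior count or depth. These were Xbp1, Srsf5, Ccnl1 and Fos under upper quartile scaling. Pdia3 and Hba-a1 fell under it with library totals, and Cdh1 and Hba-a1 with a prior count of 8. At equal depth Xbp1, Hba-a1 and Rpl36al did so, and Xbp1 also in further settings. Beyond the threshold, 0 of 2052 values of named genes and 0 of 351 list medians turned direction. The other scalings left the median difference of all genes between -0.06 and 0.10, so such a turn was hardly possible and the 0s carry little weight. Against the other 8 libraries, the 1559 higher genes with the pair numbered 1 above and the pair numbered 2 within their range became 1709 at a margin of 1.5-fold and 932 at 4-fold. The 755 with the pair numbered 2 below and the pair numbered 1 within became 921 and 158, and the 935 with both within became 339 and 2254. Of the lower genes, the 805 with the pair numbered 2 above became 871 and 512, the 115 with the pair numbered 1 below became 245 and 14, and the 495 with both within became 188 and 958.

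For G3-YSD against HSV, edgeR called 0 genes in the main fit, with upper quartile scaling, with all 12 libraries and the replicate block, with the 4 libraries alone and no block, and without each of the 4 libraries. It called 13 with the replicate block on the 4 libraries alone, 5 higher and 8 lower in G3-YSD, led by Rps12-ps9 at an adjusted p of 3.39e-15, and several of them are processed or near-identical copies. DESeq2 called 1 gene and edgeR with no filter on low counts 1, both Rps12-ps9, at adjusted p of 6.09e-05 and 0.000456, the adjusted p being 1 in the main fit. The labels do not say what the number marks, so the block is given as a description. The block on the 4 libraries also follows the pairs that closeness of counts chose, so the spread left in that fit is small by choice. That fit keeps few residual degrees of freedom, and its 13 calls and adjusted p carry little weight. Deviations from the label means correlated at 0.94 between libraries of the same number. With 2 libraries a label, the value of -0.94 for G3-YSD 1 against HSV 2 follows from it. The correlation restates the closeness of counts that chose the pairs and is no separate support for them. Depth limits genes of a few counts, and 2 libraries a label limit all tests.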
